A study of Mus musculus with 54 samples.

Results

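Vasoactive peptides and their receptors were described in mouse 3T3-L1 cells through 8 genes: the peptide genes Adm, Edn1, Edn2 and Agt, and the receptor genes Ednra, Ramp2, Ramp3 and Calcrl. They were taken as every probe whose platform symbol is one of these names. Of the 8 genes, 7 had a probe, with 1 probe each, among 16637 genes on the array, and Ednra was not analysed here. The 8 genes were chosen because earlier results of these data showed Adm, the endothelins and Agt differing with prieurianin in opposite directions, so their differences between prieurianin and the other arms are given as a description without a test.

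The 54 samples were single-colour (Cy5) Phalanx oligonucleotide arrays of total RNA, in 3 arms with 18 arrays each. One arm received 2 µM prieurianin, a plant limonoid, another received 0.5% DMSO, and the last was an untreated control undergoing normal differentiation. Each arm was sampled once at each of 18 times: 6 from 0 to 3 h, 7 from 5 to 48 h, and then 96, 144, 192, 240 and 288 h. All arms are 3T3-L1, a single clonal fibroblast-like line from mouse embryos that becomes fat cells in culture, and the labels give neither the differentiation stimulus of the treated arms nor whether the prieurianin arm held DMSO. With 1 array per arm and time, the times of these 3 windows stand in for replicates, so p-values measure the spread between times, which may be partly technical.

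Adrenomedullin, encoded by Adm, widens vessels through a receptor made of the calcitonin receptor-like protein (Calcrl) and a partner, RAMP2 or RAMP3, that sets which ligand is bound. Endothelin 1 and endothelin 2 are potent constrictors that are cut from larger precursors and act on receptors including the endothelin A receptor (Ednra). Angiotensinogen, encoded by Agt, is the precursor that renin and angiotensin-converting enzyme turn into angiotensin II, and fat tissue is a known source of it.

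The 250 bases upstream of the annotated start are shown for Adm and Agt, the pair with the widest opposite differences (RefSeq, GRCm38.p6, 5′ to 3′ on the strand of the gene). Adm lies at chr7:110627407-110627656 on the plus strand and Agt at chr8:124569707-124569956 on the minus strand. Capitals mark TATAAA, the letters of a core TATA box.
Adm: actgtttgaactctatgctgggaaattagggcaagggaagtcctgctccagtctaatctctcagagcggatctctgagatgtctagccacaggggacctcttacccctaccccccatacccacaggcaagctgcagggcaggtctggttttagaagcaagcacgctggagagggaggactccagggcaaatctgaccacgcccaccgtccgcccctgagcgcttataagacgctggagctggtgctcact
Agt: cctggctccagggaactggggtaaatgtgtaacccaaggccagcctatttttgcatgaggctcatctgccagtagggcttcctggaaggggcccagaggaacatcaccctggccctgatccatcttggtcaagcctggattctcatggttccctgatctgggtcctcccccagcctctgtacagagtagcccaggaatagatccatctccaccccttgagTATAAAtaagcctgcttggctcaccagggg
Promoters of 7 of the 8 genes were matched, and Ramp2 was missing. On either strand, TATAAA was found in the Agt window and in none of the other 6, and 12.4% of 32851 RefSeq promoters of this length held it. ACGTG (a form of the core of a hypoxia response element, in 16.6% of promoters), TGANTCA (an AP-1 site, 6.75%) and the CArG box (bound by serum response factor, 1.47%) were found in none of the 7 windows. This says only that these exact letters are not in these windows. The Adm window holds tataag close to the start, a near form of TATAAA that was not searched for. Another form of the hypoxia core, GCGTG, was not part of the search, and its share over all promoters was not counted. The Adm window above holds it on the other strand (cacgc), and the windows of Edn2 and Ramp3 hold it too, so it is not particular to Adm.

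Values below are intensities after quantile normalisation between arrays, and differences are those of log2(value + 16), so changes of dim genes come out too small. The 7 genes all passed the filter on dim genes, but Edn1, Edn2 and Ramp2 had dim mean signals, at percentiles 33.7, 29.2 and 27.3 of gene probes, with the filter at percentile 25. The mean of Ramp2 was raised by a single array, at 192 h with prieurianin. Levels of different probes are not compared.

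The prieurianin array at 192 h stood apart from its arm. It correlated best with the untreated array at 144 h (r = 0.97 over genes), against a median r of 0.94 with the other prieurianin arrays from 96 h on. Its summed signal of 6 adipocyte markers was 206965, against a median of 35012 over the late prieurianin arrays, 177812 over the late DMSO arrays and 171722 over the late untreated arrays. Of 7 smooth muscle markers, 5 read above every late DMSO and untreated array on it: Acta2 (65487, saturated), Actg2 (5059.5), Smtn (1605), Tagln (500.7) and Myh11 (328), while Cnn1 (186) and Des (794) did not. The summed signal of the 7 was 73960, mostly that of Acta2, against at most 27936 on the late DMSO arrays and 28719 on the late untreated arrays. Late prieurianin differences of the 7 genes are therefore given with and without 192 h. For other pathway genes, leaving out 192 h was among the alternatives. The DMSO array at 48 h (Adm) and the untreated array at 1 h (the highest median intensity) were also left out in turn.

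Adm was higher at 1 h than at 0 h in all arms, and afterwards stayed high with prieurianin. At 0 h it stood at 2316 with prieurianin, 1888 with DMSO and 2114 in untreated cells, and by 1 h at 11592, 10442 and 12248 in the same arms. The arms lay close together at this stage, with a mean prieurianin minus DMSO difference of 0.20 ± 0.12 on the log2 scale over 0.25 to 3 h (SD, n = 5 times). At 12 h Adm was 7440 with prieurianin, 473.5 with DMSO and 531 in untreated cells.

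Between 5 and 48 h Adm spanned 3011 to 8897 with prieurianin (median 6827), 64.9 to 4793 with DMSO (median 839) and 531 to 6867 in untreated cells (median 1786). The ranges overlapped, and the DMSO and untreated arms were still high at 5 h. At matched times prieurianin was higher than DMSO at 7 of 7 times, by 2.84 ± 1.80 (SD, n = 7), or 7.14-fold, and higher than untreated at 7 of 7 times, by 1.88 ± 1.46. These comparisons share the prieurianin arrays. The DMSO array at 48 h, at 64.9 between 1941 at 36 h and 2390.5 at 96 h, carried part of the first difference, which was 2.34 without that time.

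Late in the course Adm reached its highest values with prieurianin. In order of time from 96 to 288 h, it was 7842, 17383, 754 (the 192 h array), 21473 and 24769 with prieurianin. With DMSO it was 2390.5, 2043, 3728, 3799 and 5339, and in untreated cells 1811, 2942, 4618, 5719 and 5819.8. Every prieurianin array but that at 192 h lay above every DMSO and untreated array of the window. Prieurianin minus DMSO was 1.44 ± 2.14 (SD, n = 5), and without 192 h 2.37 ± 0.57 (n = 4), or 5.18-fold. Against untreated cells it was 1.21 ± 2.14, and without 192 h 2.16 ± 0.28.

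Some smooth muscle markers were, like Adm, higher with prieurianin over 5 to 48 h. All 7 of that list passed the filter, and over 5 to 48 h their summed signal was 70349 to 90403.5 with prieurianin, 8688.5 to 45500.2 with DMSO and 9369 to 68754 in untreated cells. Most of that sum was Acta2, whose probe was saturated on 6 of 7 prieurianin arrays, 0 of 7 DMSO arrays and 1 of 7 untreated arrays. Actg2 (median 9257 with prieurianin and 106.5 with DMSO), Smtn (2179 and 382) and Tagln (169.9 and 100.6) also did not overlap between these arms, while the ranges of Cnn1 (medians 158 and 173), Myh11 (120.4 and 152) and Des (643 and 559) did. On the prieurianin array at 192 h they parted from Adm: the summed signal was 73960, while Adm was 754. The part of these markers in the Adm difference was not tested. The share of all genes whose prieurianin and DMSO arrays did not overlap over 5 to 48 h was not counted. Endothelial markers did not separate the arms: 6 of 7 had a probe, 3 passed the filter, Cdh5, Kdr and Tek did not, and the summed signal stayed between 562.5 and 1198 over all arms and windows.

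**Figure D1:**
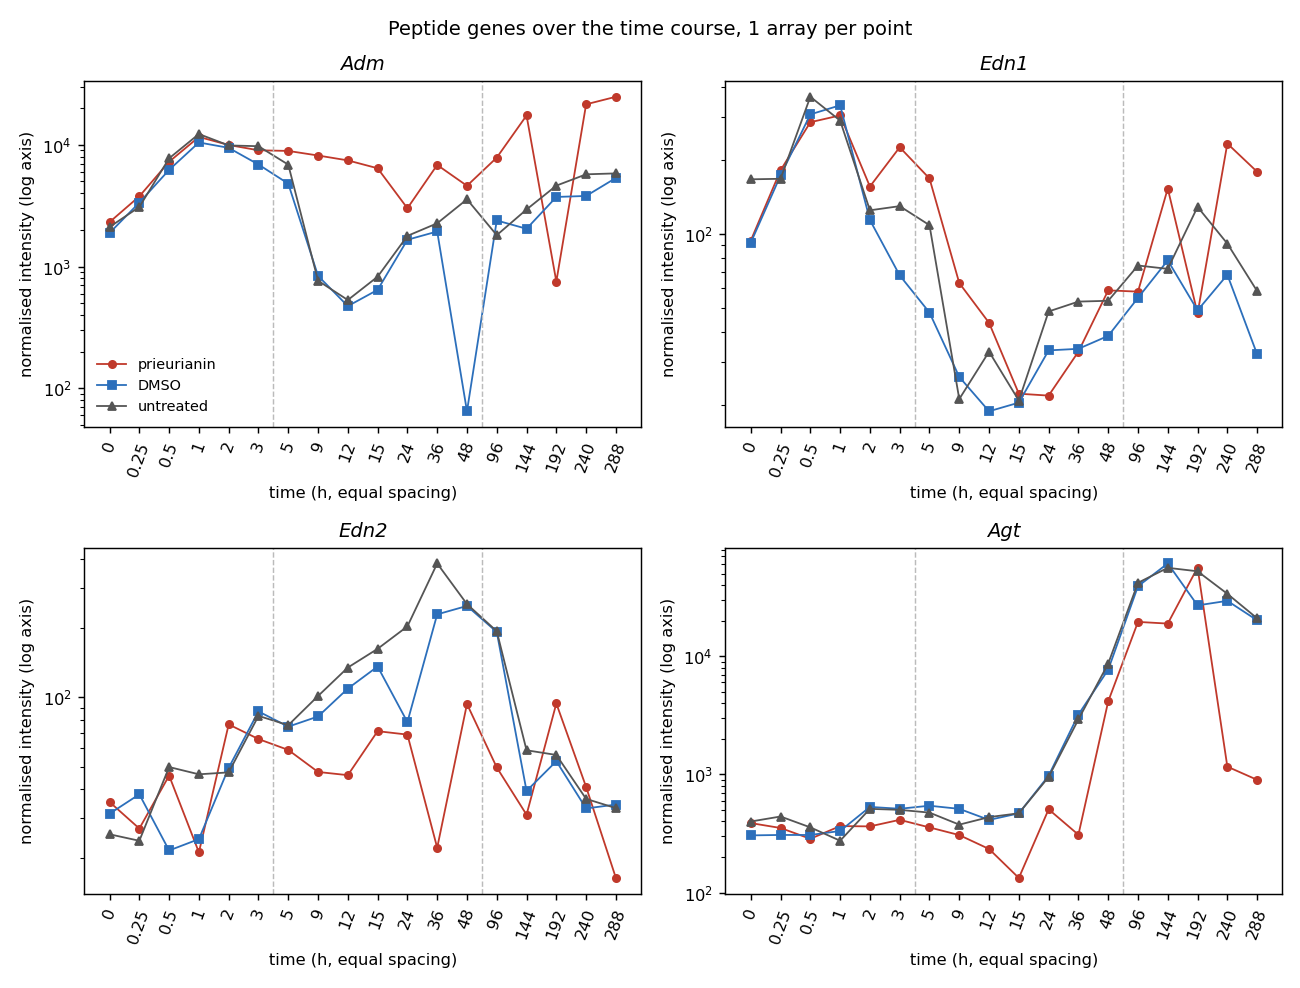
Normalised intensity (log axis) of the peptide genes Adm, Edn1, Edn2 and Agt against time in hours at equal spacing. Each point is 1 array, lines join the arrays of an arm, and dashed lines separate the 3 windows. Adm stayed at 3011 or above with prieurianin from 5 h on except at 192 h, Edn2 peaked at 36 to 48 h without prieurianin, and Agt climbed in every arm from 36 or 48 h, with low prieurianin values at 240 and 288 h.

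Edn1 showed an early peak in all arms. Over 0 to 3 h it spanned 94 to 305 with prieurianin, 67.8 to 335 with DMSO and 125 to 363.5 in untreated cells, and the highest values fell at 0.5 or 1 h. At 2 h it was lower than at 1 h in every arm, at 156 with prieurianin, 114 with DMSO and 125 in untreated cells. At 3 h it was 226 with prieurianin, 67.8 with DMSO and 130 in untreated cells, and at 5 h 169, 47.8 and 109 in the same arms. The gap at 3 and 5 h rests on 1 array per arm and time. By 15 h the arms were at 22.3, 20.5 and 20.9, which are among the dimmest signals of this probe. Prieurianin minus DMSO over 5 to 48 h was 0.48 ± 0.65 (SD, higher at 5 of 7 times).

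From 96 h on, Edn1 was higher with prieurianin at 4 of 5 times. Prieurianin arrays read 58.2, 153, 47.4, 234 and 179.6 in order of time, DMSO arrays 54.9, 78.1, 48.8, 68.2 and 32.3, and untreated arrays 74.4, 72.1, 129, 91.4 and 58.5. The ranges overlapped. Prieurianin minus DMSO was 0.89 ± 0.90 (SD, n = 5) and 1.13 ± 0.86 without 192 h (n = 4). Prieurianin minus untreated was 0.42 ± 1.11, with 3 of 5 times higher, and 0.82 ± 0.76 without 192 h.

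Edn2 differed the other way from the late Edn1 difference, and in an earlier window. From 5 to 48 h it spanned 22.2 to 93.6 with prieurianin (median 59.1), 74.6 to 249.8 with DMSO (median 109) and 75.7 to 382 in untreated cells (median 163). The separation was widest at 36 h, when the arms stood at 22.2, 229.6 and 382. Prieurianin was lower than DMSO at 7 of 7 times, by a mean log2 difference of -0.98 ± 0.85 (SD), and lower than untreated at 7 of 7, by -1.36 ± 0.96.

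The Edn2 gap did not last. At 96 h the probe read 49.6 with prieurianin, 192.5 with DMSO and 194 in untreated cells, and from 144 h on the DMSO and untreated arrays were at 58.9 or below. The late prieurianin minus DMSO difference was -0.33 ± 0.90 (lower at 3 of 5 times), and -0.58 ± 0.80 without 192 h. Against DMSO, the mean differences of the endothelin genes had opposite signs in both later windows. Of these means, only that of Edn2 over 5 to 48 h (-0.98 ± 0.85) was larger than its SD. Those of Edn1 over 5 to 48 h (0.48 ± 0.65), Edn1 late over all 5 times (0.89 ± 0.90) and Edn2 late were not.

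Agt was dim to moderate until 24 h and then climbed steeply in the arms without prieurianin. At 24 h it was 506.5 with prieurianin, 975 with DMSO and 950.4 in untreated cells, at 36 h 308, 3212 and 2920.0, and at 48 h 4151, 7703 and 8673. In this window prieurianin was below DMSO at 7 of 7 times, by a mean log2 difference of -1.27 ± 0.97 (SD), with the widest gap at 36 h. Against untreated cells the mean was -1.19 ± 0.99, also lower at 7 of 7.

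Late, Agt with prieurianin was high at 96 and 144 h and low at 240 and 288 h. From 96 to 288 h the prieurianin arrays read 19551, 18917, 56398 (the 192 h array), 1163 and 899.8 in order of time. DMSO arrays read 39166, 61079, 26974, 29477 and 20181 at the same times, and untreated arrays 41912, 56114, 52444, 33796 and 20958.5. Apart from 192 h, every prieurianin array lay below every DMSO and untreated array. Prieurianin minus DMSO was -2.15 ± 2.42 (SD, n = 5), and -2.95 ± 1.87 without 192 h (n = 4), which is 7.73-fold lower. Against untreated cells it was -2.38 ± 2.19, and -3.01 ± 1.95 without 192 h.

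The summed signal of the 6 adipocyte markers, all past the filter, moved with Agt. Over the late arrays it was 7745 to 206965 with prieurianin, 93945 to 183806 with DMSO and 91085 to 176192 in untreated cells. Most of it came from Adipoq, Cidec and Cfd. Of the 5 late arrays per arm, Cfd was saturated on 1, 2 and 3 in the same order of arms, and Adipoq on 0, 2 and 2. The late median of Fabp4 was 9021 with prieurianin, 12214 with DMSO and 8300 in untreated cells, so Fabp4 was not below untreated cells. In RNA of whole cultures, fewer fat cells and less Agt RNA per fat cell cannot be told apart. Over all 54 arrays the genes closest to Agt were Cidec (r = 0.985), which coats lipid droplets, Pnpla2 (0.982), a triglyceride lipase, and Sult1a1 (0.977), a sulfotransferase. These coefficients describe arrays that share 1 time course, and Cidec is also one of the adipocyte markers.

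**Figure D2:**
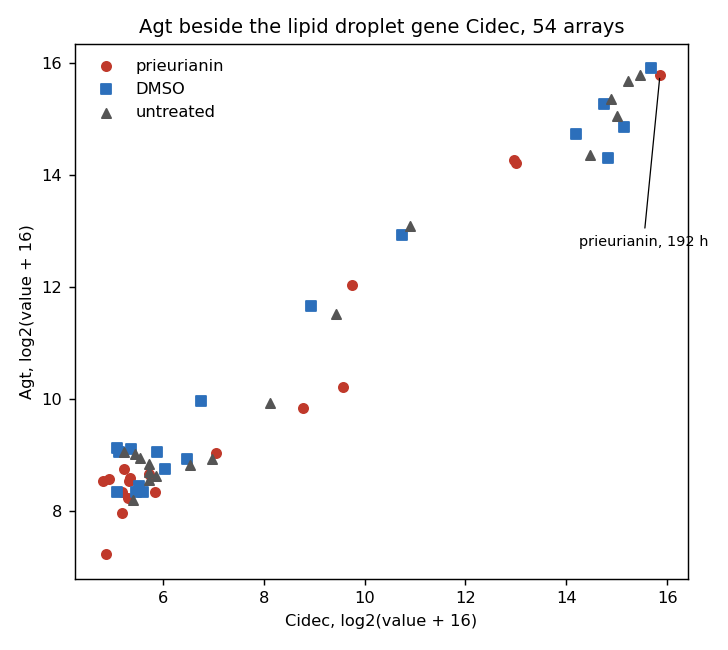
Agt against Cidec, both as log2(value + 16), over the 54 arrays, coloured by arm. The points form a single band in all arms (r = 0.985), and the prieurianin array at 192 h lies at its upper end beside late DMSO and untreated arrays.

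Calcrl, the shared receptor subunit, followed the same course in the 3 arms. Over 0 to 3 h it spanned 369 to 996 with prieurianin, 443 to 855 with DMSO and 387 to 852 in untreated cells, and the lowest value of each arm was at 3 h. At 5 h it was 167 with prieurianin, 168.5 with DMSO and 154.5 in untreated cells, the lowest point of the course in each arm. It recovered to 623, 672 and 569.6 in the same arms at 288 h. Prieurianin minus DMSO was -0.12 ± 0.42 over 5 to 48 h (lower at 5 of 7 times) and -0.29 ± 0.35 over 96 to 288 h (lower at 4 of 5), and minus untreated it was -0.17 ± 0.40 and 0.07 ± 0.36. Without 192 h the late means were -0.17 ± 0.28 against DMSO and 0.12 ± 0.40 against untreated cells. All these means lie within their SD between times.

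Ramp3, the partner that turns Calcrl into an adrenomedullin receptor in place of RAMP2, traced a wave in every arm. It was 120 with prieurianin, 109 with DMSO and 127.5 in untreated cells at 0.25 h, and it peaked at 9 h at 2702, 3405 and 5182 in the same arms. By 48 h it was 471, 660.3 and 733. The peak came at the same time with prieurianin, at a lower height. The prieurianin minus DMSO difference over 5 to 48 h was -0.31 ± 0.19 (SD, lower at 7 of 7 times). Against untreated cells it was -0.40 ± 0.66 (lower at 6 of 7 times), within its SD. At 24 h Ramp3 was higher with prieurianin (1128) than in untreated cells (533).

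Late, Ramp3 was on the other side. Prieurianin arrays read 447, 382, 252, 262 and 261.5 from 96 to 288 h, DMSO arrays 194.5, 271, 228, 161 and 177, and untreated arrays 330.5, 357, 305, 173 and 141. Prieurianin was above DMSO at 5 of 5 times, by 0.58 ± 0.36 (SD), although the ranges overlapped, and above untreated at 4 of 5, by 0.33 ± 0.42. Without 192 h these means were 0.70 ± 0.30 against DMSO and 0.47 ± 0.30 against untreated cells.

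Ramp2, the other adrenomedullin partner, gave a dim signal. Over 5 to 48 h it spanned 15.8 to 110 with prieurianin, 33.5 to 127 with DMSO and 40.2 to 141 in untreated cells, and prieurianin was lower than DMSO at 6 of 7 times, by a mean of -0.37 ± 0.26 (SD). Late prieurianin arrays read 61.6, 41.9, 484.7, 35.1 and 33.3, DMSO arrays 133.5, 72, 102, 119 and 145.5, and untreated arrays 114, 78.7, 73, 102 and 171. Without the 484.7 at 192 h, the prieurianin arrays all lay below the DMSO and untreated arrays. Prieurianin minus DMSO was -0.51 ± 1.52 (SD, n = 5), and -1.17 ± 0.49 without 192 h (n = 4).

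**Figure D3:**
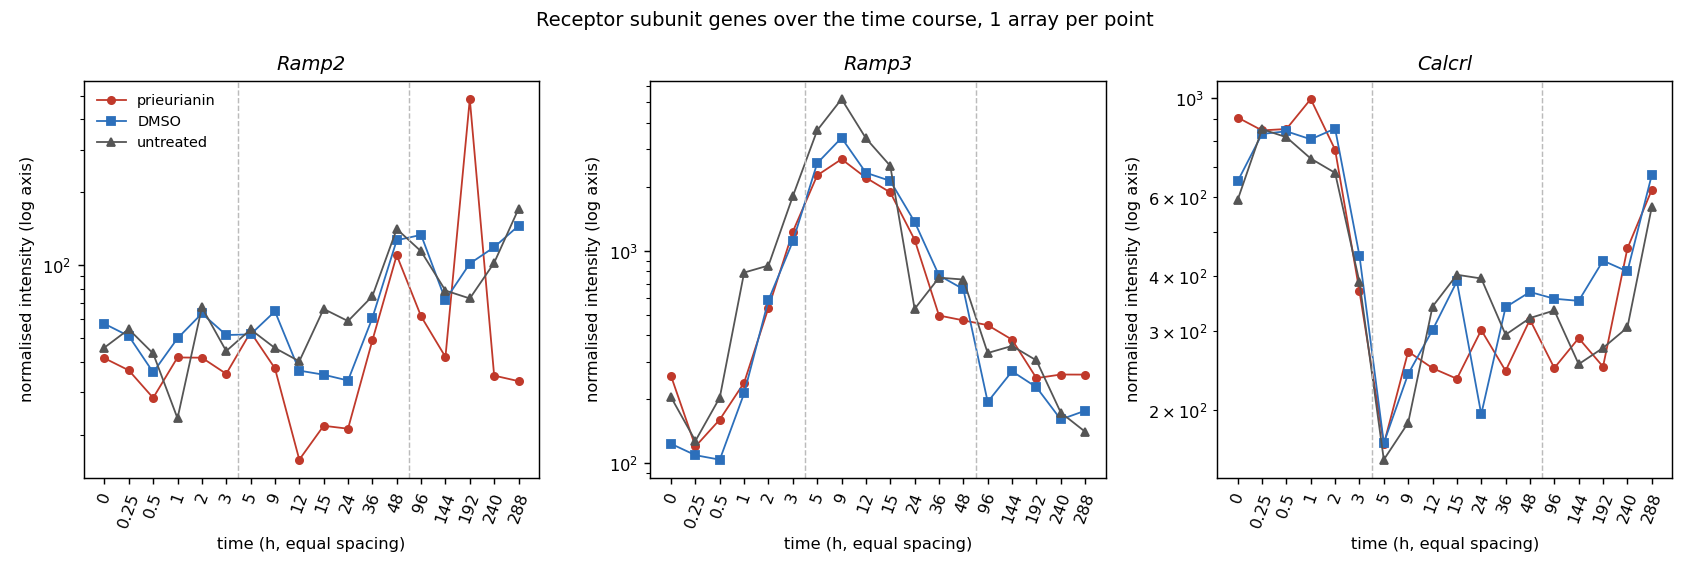
Normalised intensity (log axis) of the receptor genes Ramp2, Ramp3 and Calcrl against time in hours at equal spacing, 1 array per point and 1 line per arm. Ramp3 peaked at 9 h and Calcrl was lowest at 5 h in all 3 arms, and the prieurianin array at 192 h stands out for Ramp2.

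Set side by side over 5 to 48 h, the mean prieurianin minus DMSO difference passed 2-fold upward for 1 gene, Adm, and downward for 1 gene, Agt. Over all 12792 genes tested, 1.04% passed 2-fold upward and 0.125% downward in that window. Over 96 to 288 h the same 2 genes passed 2-fold in the same directions, against 1.13% upward and 1.51% downward over all genes. Without 192 h, Adm, Agt and Ramp2 were the 3 genes whose late prieurianin and DMSO arrays did not overlap, and 13.1% of all genes tested did not overlap in the same arrays. Because the genes were chosen from these differences, the counts describe the choice.

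**Figure D4:**
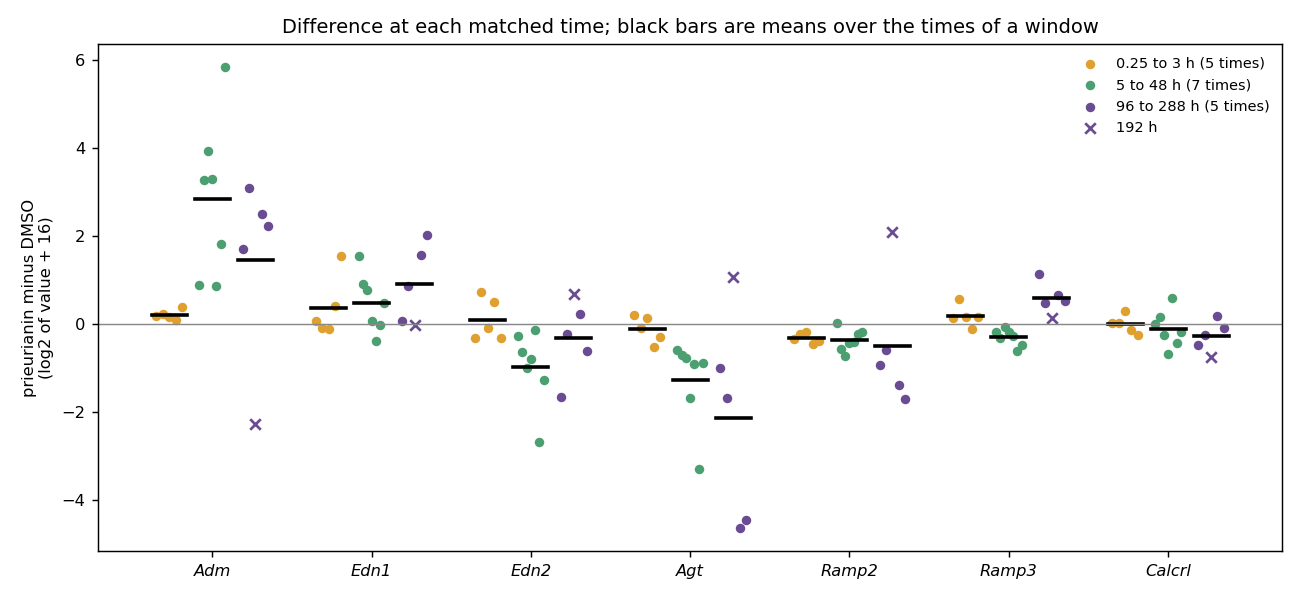
Prieurianin minus DMSO on the log2(value + 16) scale at each matched time after 0 h, for the 7 genes and the 3 windows. Each point is 1 time, black bars are the means of a window and crosses mark 192 h. Adm lies above 0 and Agt below 0 at every time over 5 to 48 h. The 192 h cross falls on the opposite side from the other late times for Adm, Agt and Ramp2, and by a small margin (-0.03) for Edn1.

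The change of these genes over time within DMSO and untreated cells is a contrast that the choice did not use, and it was tested. The same arrays were the controls of the prieurianin differences that chose the genes, so the calls are not independent of the choice: a gene chosen for a wide gap in a window is favoured to change there in the controls. In limma fits over all genes, 17.4% of genes changed between 0 to 3 h and 5 to 48 h with DMSO and 16.3% in untreated cells, at a Benjamini-Hochberg adjusted p under 0.05. Of the 7 genes, 5 were called in each arm. These were the same 5: Adm, Edn1 and Calcrl fell, and Edn2 and Ramp3 rose. Of all genes, 7.87% rose and 9.48% fell with DMSO, and 8.3% rose and 8.01% fell in untreated cells.

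Edn1 fell by 1.89 on the log2 scale with DMSO (SE 0.34, limma adjusted p = 9.86e-05) and by 1.81 in untreated cells (SE 0.34, adjusted p = 0.000166). Calcrl fell by 1.34 with DMSO (SE 0.24, adjusted p = 7.77e-05) and by 1.16 in untreated cells (SE 0.24, adjusted p = 0.000483). Adm fell by 2.67 with DMSO (SE 0.66, adjusted p = 0.00338) and by 1.91 in untreated cells (SE 0.66, adjusted p = 0.0379), and the untreated call was lost in 10 of 28 alternatives, among them without the untreated array at 1 h (adjusted p = 0.0964). The genes that fell had an early peak or plateau.

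Ramp3 rose by 2.65 ± 0.57 with DMSO (SE, limma adjusted p = 0.000843) and 1.95 ± 0.57 in untreated cells (adjusted p = 0.0135, and 0.051 without 0.25 h). Edn2 rose by 1.36 ± 0.35 with DMSO (adjusted p = 0.00463) and 1.63 ± 0.35 in untreated cells (adjusted p = 0.000765). Agt gained 1.45 ± 0.71 with DMSO and 1.25 ± 0.71 in untreated cells without a call (adjusted p = 0.154 and 0.251), and its highest values in that window were at 36 and 48 h.

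Between 5 to 48 h and 96 to 288 h, 36.1% of all genes changed with DMSO (17.8% rose and 18.3% fell) and 32.8% in untreated cells (15.3% rose and 17.5% fell). Agt rose 31.0-fold with DMSO, by 4.96 ± 0.75 on the log2 scale (SE, limma adjusted p = 8.91e-07), and 38.6-fold in untreated cells, by 5.27 ± 0.75 (adjusted p = 2.57e-07). It was called in all 28 alternatives in each arm. Ramp3 fell by 2.91 with DMSO (SE 0.60, adjusted p = 0.000128) and by 2.75 in untreated cells (SE 0.60, adjusted p = 0.000268), which ends its wave.

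Edn2 fell again, by 0.96 with DMSO (SE 0.36, limma adjusted p = 0.0353) and by 1.23 in untreated cells (SE 0.36, adjusted p = 0.00683). With DMSO, Adm (1.93 ± 0.69, adjusted p = 0.0247), Ramp2 (0.87 ± 0.34, adjusted p = 0.04) and Calcrl (0.62 ± 0.25, adjusted p = 0.0457) also rose. In untreated cells the matching values were 1.20 ± 0.69 for Adm (adjusted p = 0.188), 0.57 ± 0.34 for Ramp2 (0.202) and 0.22 ± 0.25 for Calcrl (0.553). That made 6 genes with DMSO and 3 in untreated cells, but without 240 h or without 288 h only 2 of the 6 DMSO calls were made, those of Agt and Ramp3. The change in Adm with DMSO was 1.36 without the 48 h array (adjusted p = 0.0934).

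The difference of these changes between DMSO and untreated cells was tested directly, in the course fit, which does not match the arms by time. No gene of the array was called for either step (0% of 12792, with 534 and 955 genes at an unadjusted p under 0.05 in limma), so none of the 7 genes was. For Adm the difference of the early step was -0.76 ± 0.93 (SE).

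DMSO and untreated cells were then compared at matched times. Both arms were controls of the differences that chose the genes, so neither a call nor its absence is independent of the choice. Among all genes, 3.54% were called over 0.25 to 3 h, 20.3% over 5 to 48 h and 3.65% over 96 to 288 h. Of the 7 genes, 1 was called: Ramp3 over 0.25 to 3 h, which was lower with DMSO at 5 of 5 times, by a log2 difference of -0.82 ± 0.22 (SE, limma adjusted p = 0.0257), where 0.407% of all genes were lower. DMSO arrays read 109, 104, 213, 587 and 1109 from 0.25 to 3 h, and untreated arrays 127.5, 204, 790.4, 853 and 1809. The widest gap was at 1 h, on the untreated array with the highest median intensity. Without that array the adjusted p was 0.169.

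None of the 7 was called over the later windows, where 20.3% of all genes were at 5 to 48 h. Adm had the widest mean difference there, -0.96 ± 0.53 (SE, limma adjusted p = 0.212), with the 48 h array included, and Calcrl was higher with DMSO at 5 of 5 late times, by 0.36 ± 0.15 (adjusted p = 0.219). Agt differed by 0.08 ± 0.41 over 5 to 48 h and by -0.24 ± 0.49 over 96 to 288 h. The change of the DMSO effect between windows gave no call among all genes (0%, with 770 and 1830 genes at an unadjusted p under 0.05). It is the difference of changes given above, here with matched times and without 0 h, and not a separate result.

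The genes most like each member over the 54 arrays were named by Pearson's r alone. For Edn1 they were Ccn1 (r = 0.832), a secreted matrix protein, Zfp36 (0.815), which speeds mRNA decay, and Ankrd1 (0.811). For Adm they were Wdfy1 (0.785), Nedd4l (0.779) and Maff (0.777), and for Edn2 Krt15 (0.79), Nt5dc2 (0.773) and Rbm8a (0.765). For Calcrl they were Zfpm2 (0.901), Phactr1 (0.879) and Nipal3 (0.879), for Ramp3 Krt13 (0.899), Clec4d (0.893) and Aimp2 (0.887), and for Ramp2 Lum (0.843), Csad (0.838) and Mir99ahg (0.825). Among the 7 genes themselves r was 0.75 for Agt with Ramp2, 0.62 for Adm with Edn1, 0.61 for Edn1 with Calcrl and -0.65 for Ramp3 with Calcrl. The arrays share arms and a time course, so these values are descriptions.

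The wider vasoactive pathways were followed through a list of 74 other genes, of which 70 had a probe and 38 passed the filter: 7 ligands, 14 receptors and partners, 9 processing and breakdown enzymes and 8 mediators of vascular tone. Over 0.25 to 3 h, prieurianin against DMSO gave no call among these or any other gene (0%, with 300 genes at an unadjusted p under 0.05 in limma). Over 5 to 48 h 2 of the 38 genes rose and none fell (5.26%, against 11.1% of all genes). Their median difference was -0.01, as was that of all genes.

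Ddah1, which breaks down an endogenous inhibitor of nitric oxide synthase, spanned 547 to 1566 with prieurianin (median 1193), 408 to 1073 with DMSO (median 518.5) and 656 to 1600.2 in untreated cells (median 926) over 5 to 48 h. It rose against DMSO by 0.80 ± 0.16 (SE, limma adjusted p = 0.00128, higher at 7 of 7 times), and this call held in all 29 alternatives. DMSO was itself below untreated cells for Ddah1 over this window, by a log2 difference of -0.63 ± 0.16 (adjusted p = 0.00617). Ece1, the protease that releases active endothelins, rose by 0.33 ± 0.10 (adjusted p = 0.026, higher at 6 of 7 times), a call lost in 9 of 29 alternatives.

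Over 96 to 288 h 3 of the 38 genes rose and 3 fell (15.8%, against 16.7% of all genes), with a median of 0.05 against 0.02 for all genes. The steadiest was Nppb, which encodes the natriuretic peptide BNP. It read 189, 222, 137, 330.2 and 448 with prieurianin, 137, 69, 130.2, 79.1 and 133 with DMSO and 123, 131, 118.5, 119 and 146 in untreated cells. It rose against DMSO by 1.09 ± 0.19 (SE, limma adjusted p = 0.00021), higher at 5 of 5 times, and the call held in all 29 alternatives.

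Ddah1 (0.57 ± 0.19, limma adjusted p = 0.0411) and Crcp (0.38 ± 0.12, adjusted p = 0.0249), a component of the receptor complex for calcitonin gene-related peptide, also rose late, with calls lost in 10 and 6 of 29 alternatives. Without 288 h the value for Crcp was 0.18, and without 240 h that for Ddah1 was 0.38, both without a call. Ddah1 read 969, 944, 1118.5, 2297 and 1870.4 with prieurianin and 724, 734, 1120.5, 905 and 1101 with DMSO. The late Ddah1 gap was widest at 240 and 288 h.

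Among the genes that fell late, Rgs2, a brake on signalling from constrictor receptors, read 6616, 6754, 5678, 735 and 388 with prieurianin, 9316, 11315, 2549.5, 4587 and 4077 with DMSO and 8534, 9899, 6372, 3206 and 3140.5 in untreated cells. It fell by 1.21 against DMSO (SE 0.33, limma adjusted p = 0.0106, lower at 4 of 5 times). The lowest prieurianin values were at 240 and 288 h. At 192 h the DMSO array was low (-1.32 against untreated), and against untreated cells prieurianin was lower at 5 of 5 times. Without 288 h the value was -0.68 (adjusted p = 0.188).

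Adcyap1r1, the receptor for the dilator peptide PACAP, fell by 1.50 (SE 0.42, adjusted p = 0.0119 in limma, lower at 4 of 5 times), with 284.5, 178, 613, 97 and 41.5 with prieurianin, 499, 512, 169, 761 and 1091 with DMSO and 588, 441.5, 495, 637 and 637 in untreated cells. The gene has 4 probes, and their mean differed by -0.39 (adjusted p = 0.171). For the probe used, the value was -2.32 without 192 h and -0.81 without 288 h (adjusted p = 0.224). Ptgir, the prostacyclin receptor, fell by 0.53 (SE 0.16, adjusted p = 0.0186, lower at 5 of 5 times), on a dim probe that read 18.9 to 133 with prieurianin and 32.9 to 162 with DMSO, and its value was -0.25 without 192 h (adjusted p = 0.186). Calls for Rgs2, Adcyap1r1 and Ptgir were lost in 5, 4 and 7 of 29 alternatives.

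**Figure D5:**
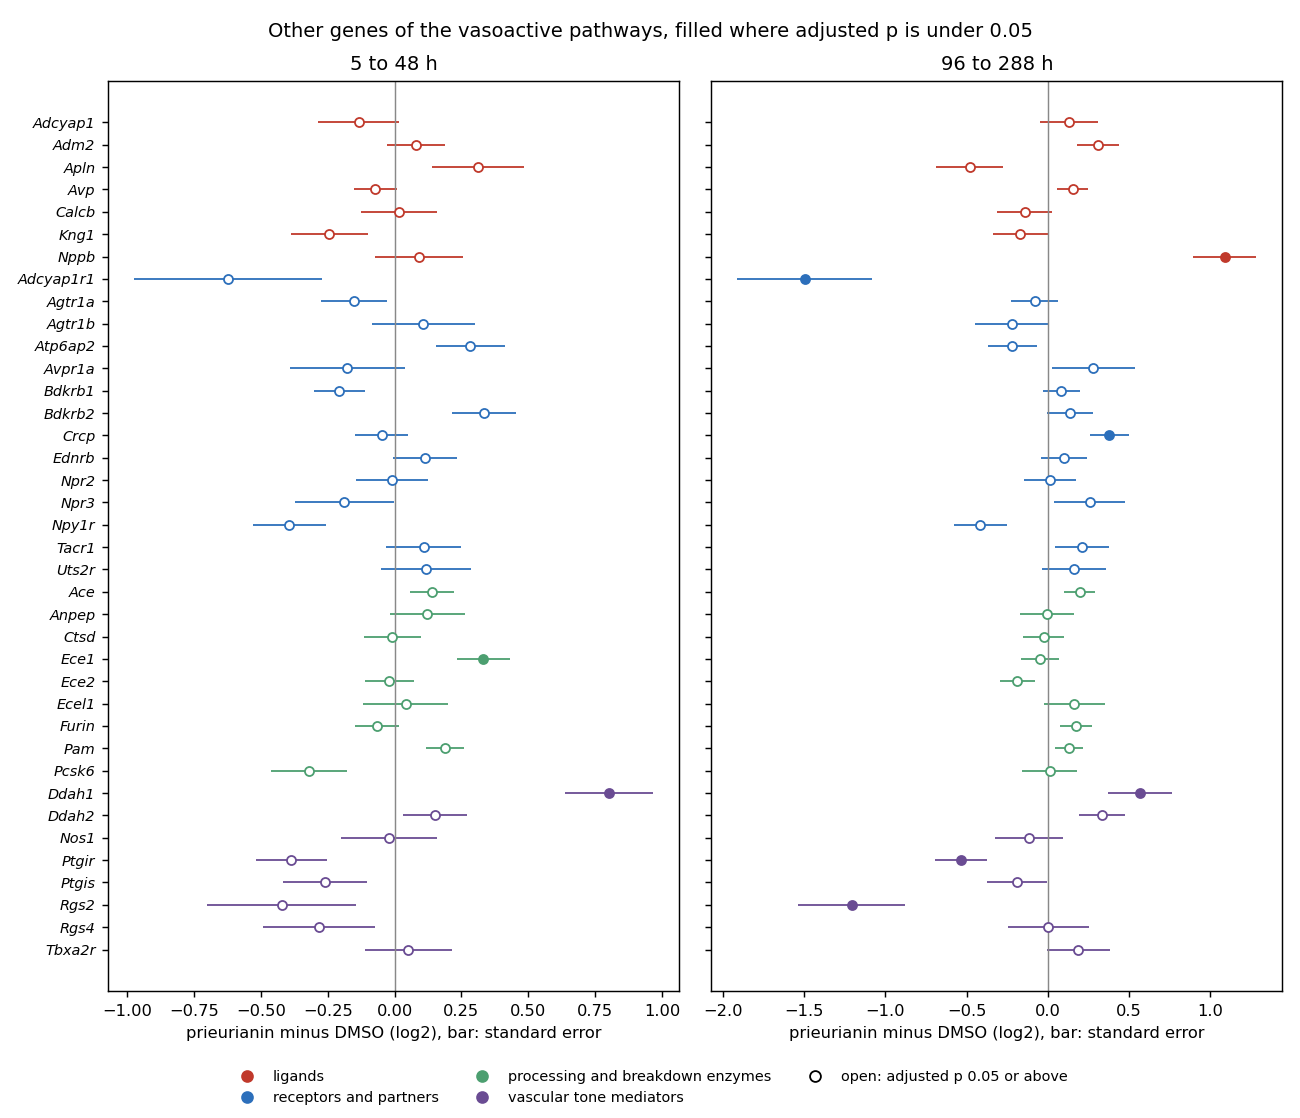
Prieurianin minus DMSO (log2, with standard errors) for the 38 other pathway genes, grouped by role, over 5 to 48 h (left) and 96 to 288 h (right). Filled points have an adjusted p under 0.05: Ddah1 and Ece1 on the left, and Nppb, Ddah1, Crcp, Adcyap1r1, Rgs2 and Ptgir on the right.

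Against untreated cells, which share the prieurianin arrays with the comparison above, 3 of the 38 pathway genes were called over 0.25 to 3 h (7.89%, against 5.93% of all genes). Over 5 to 48 h 4 rose and 6 fell (26.3%, against 28.5%), and over 96 to 288 h 7 rose and 4 fell (28.9%, against 22.0%). These shares lie near those of all genes.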

How the data were processed

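The deposited values are linear Cy5 intensities, 1 column per array, judged from the values because no label states the unit. They ran from -83 to 65497, with 0.466% below 0 and array medians from 88 to 313. The scanner and any scaling by the authors are not given in the sources used here. Per the labels' protocols, column-purified total RNA was amplified to amino allyl RNA and coupled to Cy5. Probes within 50 units of the top value of their array counted as saturated (93 to 176 per array), and none of the 7 genes was saturated on any array. Precision is limited by how many arrays there are.

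Of 29922 probes, 21020 carried 1 symbol, none several and 8902 none. Symbols were updated through a RefSeq table of GRCm38.p6 (17558 current, 3410 updated, 52 kept). Intensities were quantile normalised, floored at 0 and taken as log2(value + 16). A gene was its probe with the highest mean, and 3566 of 16637 genes had several. Genes with a mean log2 above 6.07 were kept, leaving 12792.

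Tests used limma 3.58.1 in R 4.3.3 on all genes kept, with Benjamini-Hochberg adjustment and a threshold of 0.05. Arms were compared with time as a factor and an arm effect per window, on 51 arrays without 0 h (28 residual degrees of freedom). Courses used a mean per arm and window on all 54 arrays (45 degrees of freedom). Scripts were tested on simulated data. Alternatives changed the normalisation, pseudocount, filter, probe rule, time term and samples, and left out each time. The alternatives without the DMSO array at 48 h and without the untreated array at 1 h were chosen after seeing the data. Called pathway genes were named as the 5 largest rises and falls of prieurianin against DMSO in each later window, plus any in a role with 3 or fewer calls. The 3 closest genes per member were taken by Pearson's r. The members and all lists were chosen with earlier results of these data known.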

Additional observations from a re-analysis of the deposited data

Results flagged for a closer look

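Within each arm and window, the highest or lowest array was set against the others by its gap as a share of the whole range on the log2 scale (Dixon's criterion). Of 63 groups, 4 held an array far from the rest, and chance alone flags about 1 in 20 groups.

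Ramp2 read 8.97 on the log2 scale on the prieurianin array at 192 h (intensity 484.7), while the other 4 late prieurianin arrays lay between 33.3 and 61.6. Agt read 12.02 on the prieurianin array at 48 h (4151), with the other 6 arrays of 5 to 48 h between 133 and 506.5. Calcrl read 8.59 on the prieurianin array at 3 h (369), with the other 5 early arrays between 767 and 996, and the DMSO and untreated arrays at 3 h were low as well (443 and 387). Edn2 read 7.7 on the DMSO array at 96 h (192.5), with the other late DMSO arrays between 32.9 and 52.8, and the untreated array at 96 h stood at 194. The causes were not tested.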

How the results depend on the processing

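Agt and Ramp3 (late steps), Edn1, Calcrl and Edn2 (early steps) kept their calls in the untreated and DMSO courses under all 28 alternatives, and no signed difference of the 7 genes that was called reversed. Other calls depended on the setting. Ramp3 with DMSO against untreated cells over 0.25 to 3 h (1 gene called) gave 0 genes with values as deposited, time as a random block, no replicate block, only the arms compared and without the untreated array at 1 h, and 0 to 1 without each time. In the late DMSO course 6 genes were called, and 2 to 6 without each time. The block is the matched time, which the fit with no replicate block leaves out.

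Of pathway genes, prieurianin against DMSO over 5 to 48 h gave 2 calls, 1 under median centring, values as deposited, a random block, no block or only the arms compared, 5 without the prieurianin array at 192 h, 4 without the DMSO array at 48 h and 1 to 4 without each time. Over 96 to 288 h the 6 calls became 3, 3, 3, 2 and 2 under the first 5 of these settings and 2 to 9 without each time. Against untreated cells, the 3 early calls became 0 under median centring, as deposited, with no block, with only the arms compared and without the untreated array at 1 h, and 0 to 3 without each time. The 10 calls of 5 to 48 h became 4 with no block. The 11 late calls became 5 under median centring, 6 as deposited, 7 with a random block, 2 with no block and 6 to 13 without each time. Ece2 changed sign when a gene's probes were averaged: 0.0139 for prieurianin against untreated and 0.0431 for DMSO against untreated over 5 to 48 h, and 0.134 for the late untreated course. The causes were not tested.

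Counts over all genes for prieurianin against DMSO were 1424 over 5 to 48 h (411 to 1896 over the alternatives) and 2133 over 96 to 288 h (657 to 3410), and for DMSO against untreated 453 over 0.25 to 3 h (83 to 672), 2596 over 5 to 48 h (1366 to 3507) and 467 over 96 to 288 h (17 to 787). For prieurianin against untreated they were 759 (205 to 951), 3642 (1962 to 4113) and 2811 (1227 to 3779) in the 3 windows. The DMSO course gave 2220 (991 to 2423) and the untreated course 2086 (1233 to 2317) for the early step. Median centring split the calls of prieurianin against DMSO over 5 to 48 h into 555 higher and 26 lower, against 847 and 577, and those of the late DMSO course into 2556 and 1187, against 2276 and 2337. It split the early step of the DMSO course into 342 and 1244, against 1007 and 1213. With values as deposited the splits were 298 and 693 there, 1256 and 2386 in the late DMSO course, and 219 and 1014 in the early untreated course, against 1062 and 1024. Within windows, the widest moves of the median of all genes between arms were to -0.18 under centring for DMSO against untreated over 5 to 48 h, against -0.03, and to -0.17 as deposited for prieurianin against untreated late, against -0.01. Dim signal limits Edn1, Edn2 and Ramp2.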

Other observations

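Other pathway genes changed over the DMSO and untreated courses. Between 0 to 3 h and 5 to 48 h, 1 of the 38 rose and 6 fell with DMSO (18.4%, against 17.4% of all genes), and 2 rose and 7 fell in untreated cells (23.7%, against 16.3%). Npy1r, a receptor for neuropeptide Y, fell by 1.28 on the log2 scale in each arm (SE 0.29, limma adjusted p = 0.00159 with DMSO and 0.00165 in untreated cells). Atp6ap2, the prorenin receptor, fell by 0.59 with DMSO and by 0.96 in untreated cells, and Pam, which amidates adrenomedullin and other peptides, fell by 0.41 and by 0.42 in the same arms. Apln, which encodes apelin, rose by 0.73 ± 0.26 with DMSO (adjusted p = 0.0454, lost in 15 of 28 alternatives) and by 0.82 ± 0.26 in untreated cells.

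Late in the course 7 of the 38 rose and 8 fell with DMSO (39.5%, against 36.1% of all genes), and 6 rose and 8 fell in untreated cells (36.8%, against 32.8%). Adcyap1r1 rose 4.91-fold with DMSO and 5.70-fold in untreated cells, and was called in all 28 alternatives in each arm. Ece1 rose by 1.01 ± 0.21 with DMSO and 0.83 ± 0.21 in untreated cells. The bradykinin receptor gene Bdkrb1, which was named after its values were seen, fell by 1.08 and by 0.99 in the same arms (SE 0.17 each).

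Between DMSO and untreated cells over 5 to 48 h, 3 of the 38 were higher and 2 lower with DMSO (13.2%, against 20.3% of all genes). Higher were Atp6ap2 (0.76 ± 0.13, limma adjusted p = 6.54e-05, called in all 29 alternatives), Pam (0.29 ± 0.07, adjusted p = 0.00403) and Npr2 (0.37 ± 0.13, adjusted p = 0.0485, lost in 17 of 29 alternatives), and lower were Ddah1 (-0.63 ± 0.16) and Ece2 (-0.29 ± 0.09, adjusted p = 0.0197). Late, 3 were higher and 0 lower (7.89%, against 3.65%): Apln (0.90 ± 0.20, adjusted p = 0.00963), Atp6ap2 (0.66 ± 0.15, adjusted p = 0.0106) and Pam (0.44 ± 0.09, adjusted p = 0.00281).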
